A study of Mus musculus with 6 samples.

Results

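The 33 genes described here mark macrophages, the Kupffer cells of the liver and blood monocytes, and they were read in liver tumours of wild-type and Alb/AEG-1 transgenic mice. They were chosen by name: a probe set of the array counted when the platform annotation gave it a single symbol, older synonyms accepted, from the list of 33. Of the listed genes 32 were measured, by 46 probe sets, out of 12393 genes with a single symbol, and Timd4 was not analysed here. Where a gene had several probe sets, the one with the highest mean over the 6 arrays stood for it. The measured genes were read in 6 roles: 6 markers of resident Kupffer cells, 3 of monocytes, 8 genes shared by macrophages, 3 of lipid-associated macrophages, 5 Fc receptors and their adaptors, and 7 genes of leukocytes, lysosomes and the phagocyte oxidase.

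All 6 animals were male mice given N-nitrosodiethylamine (DEN), a carcinogen that hepatocytes turn into a DNA-damaging form, at 10 µg per g body weight by 1 intraperitoneal injection at 14 days of age. Their liver tumours were taken at 28 weeks. The 3 wild-type animals carried no transgene, and the 3 Alb/AEG-1 animals carried a transgene for AEG-1, the astrocyte elevated gene-1 protein that Mtdh encodes, named for albumin, whose promoter is active in hepatocytes and not in macrophages. The labels give the background strain CD-1 for both groups and B6CBAF1/J matings as the source of the injected embryos. Each tumour RNA was hybridized to its own Affymetrix array, and all values are log2 expression levels on the scale the authors deposited. The comparison asks whether tumours that grew with the transgene differ from tumours that grew without it.

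Kupffer cells are the macrophages that line the liver sinusoids. They are seeded before birth, renew themselves in place under the growth factor receptor encoded by Csf1r, and take up bacteria, old red cells and complement-coated particles from the blood. When Kupffer cells are lost or a tumour grows, monocytes that carry the chemokine receptor Ccr2 enter the liver, become macrophages and can slowly take on Kupffer genes. Receptors of both cells signal through small adaptor proteins with activation motifs, encoded by Tyrobp and Fcer1g, and PU.1, encoded by Spi1, is the transcription factor that the lineage depends on.

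The array medians differed by at most 0.0289, and Pearson's r of array pairs, taken across probe sets, ran from 0.987 to 0.993. A list of 7 measured hepatocyte markers had means per array between 13.58 and 13.72, as the tissue label implies. The titles give each animal a number, which falls in one of 2 ranges: the lower holds wild-type replicate 1 with Alb/AEG-1 replicates 1 and 2, and the higher holds Alb/AEG-1 replicate 3 with wild-type replicates 2 and 3. The labels do not say what the numbers stand for. In whole tumours a larger number of macrophages and more RNA per macrophage cannot be told apart.

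Most of the 32 genes had a higher mean in Alb/AEG-1 tumours, with small differences, and 0 of them passed the test. The mean difference was positive in 28 of 32 genes, where 47.8% of all genes were positive, and the median difference was 0.29 log2 against -0.01 over all genes. The list was drawn up with earlier results of these data known. These counts, and the counts of the 32 genes given below, therefore only describe it. The largest were Mpeg1, which encodes the pore-forming protein perforin 2 of macrophages (0.90 log2, 1.87-fold), Lyz2, which encodes lysozyme (0.71), Aif1, an actin-binding protein of macrophages (0.55), and Cd5l, a scavenger protein that macrophages secrete (0.54). The 4 genes with a negative difference were Fcgr1 (-0.22), Fcgr2b (-0.22), Folr2 (-0.08) and Cx3cr1 (-0.07).

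With limma's moderated test over 22626 probe sets and Benjamini-Hochberg adjustment, the 32 genes had adjusted p between 0.596 and 0.974, and 1 probe set on the array passed at 0.05 (0.00442%), of no gene on the list. At an unadjusted p below 0.05 there were 5 of the 32 genes higher (Mpeg1, Aif1, Cd5l, Cybb and Ctss) and 0 lower, where the shares over all genes were 3.86% higher and 4.47% lower. All 3 arrays of one group lay beyond all 3 of the other in 6 genes. Of these, 5 were higher in Alb/AEG-1 tumours (Mpeg1, Aif1, Cd5l, Marco and Gpnmb, background 6.77%) and 1 was lower (Fcgr2b, background 8.31%). With 5 arrays groups separate more easily, and the count of 6 has to be read against all genes at the same setting. It was 20 of 32 with Alb/AEG-1 replicate 1 left out, where 22.7% of all genes separated in either direction, 16 with wild-type replicate 1 left out (32% of all genes) and 10 with wild-type replicate 3 left out (22.7%). The count did not exceed the share over all genes at the remaining settings. It was 6 without wild-type replicate 2 (22%), 7 without Alb/AEG-1 replicate 2 (26.4%) and 7 without Alb/AEG-1 replicate 3 (28.5%). For 27 of the 32 genes, all but Cd5l, Mpeg1, Aif1, Adgre1 and Slc11a1, leaving out 1 array moved the difference by more than 1.5 times. The intervals show what 3 arrays per group could resolve: for Csf1r, for example, the 95% interval of the difference ran from -0.03 to 0.87.

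**Figure D1:**
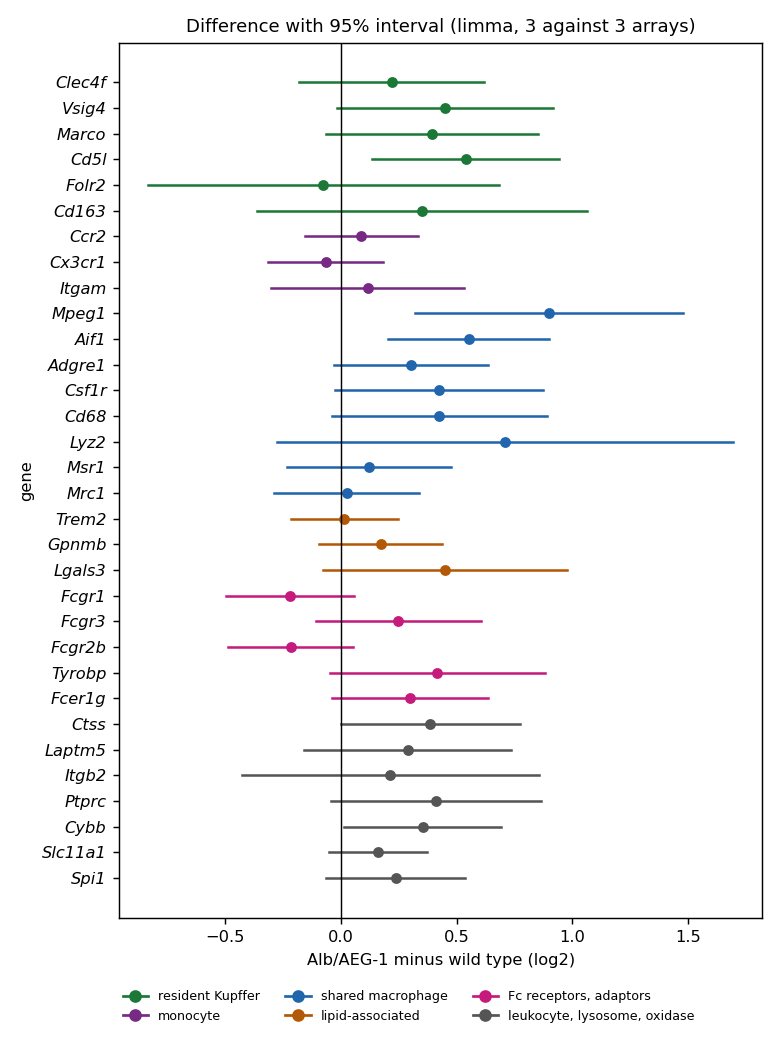
Difference between Alb/AEG-1 and wild-type tumours (horizontal axis, log2) for each measured gene (vertical axis), with points for the difference and lines for limma's 95% interval from 3 arrays per group, coloured by role. Of the points, 28 of 32 lie right of 0, and the intervals of Mpeg1, Aif1, Cd5l, Cybb and Ctss lie wholly right of it.

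The arrays of 2 animals carried much of this difference. Over the 32 genes the mean level per array was 6.26, 6.03 and 6.20 in wild-type against 6.20, 6.45 and 6.65 in Alb/AEG-1 tumours, so that Alb/AEG-1 replicate 1 lay within the wild-type values and the groups overlapped. Wild-type replicate 2 was the lowest of the 6 arrays in 19 of the 32 genes, where it was the lowest in 18.7% of all genes. Alb/AEG-1 replicate 3 was the highest in 20 of the 32, where it was the highest in 15.1% of all genes. Wild-type replicate 1 lay above Alb/AEG-1 replicate 1 in 21 of the 32, where it did so in 50.8% of all genes.

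The group means were 6.16 ± 0.12 (SD, n = 3) in wild-type against 6.43 ± 0.23 in Alb/AEG-1 tumours, a mean difference of 0.27. It was 0.16 without Alb/AEG-1 replicate 3 and 0.39 without Alb/AEG-1 replicate 1. With wild-type replicate 2 and Alb/AEG-1 replicate 3 both left out, a choice made after the data were seen, it was 0.10, and 22 of the 32 differences were positive. Both of those arrays belong to the higher animal numbers. The mean difference was 0.07 among the lower-numbered animals (20 of 32 positive) and 0.54 among the higher-numbered (27 of 32 positive), where 49.0% and 48.5% of all genes were positive. With the number range as a term in the fit the mean was 0.30 and 27 of the 32 were positive. What the ranges stand for, and their part in the difference, was not tested.

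**Figure D2:**
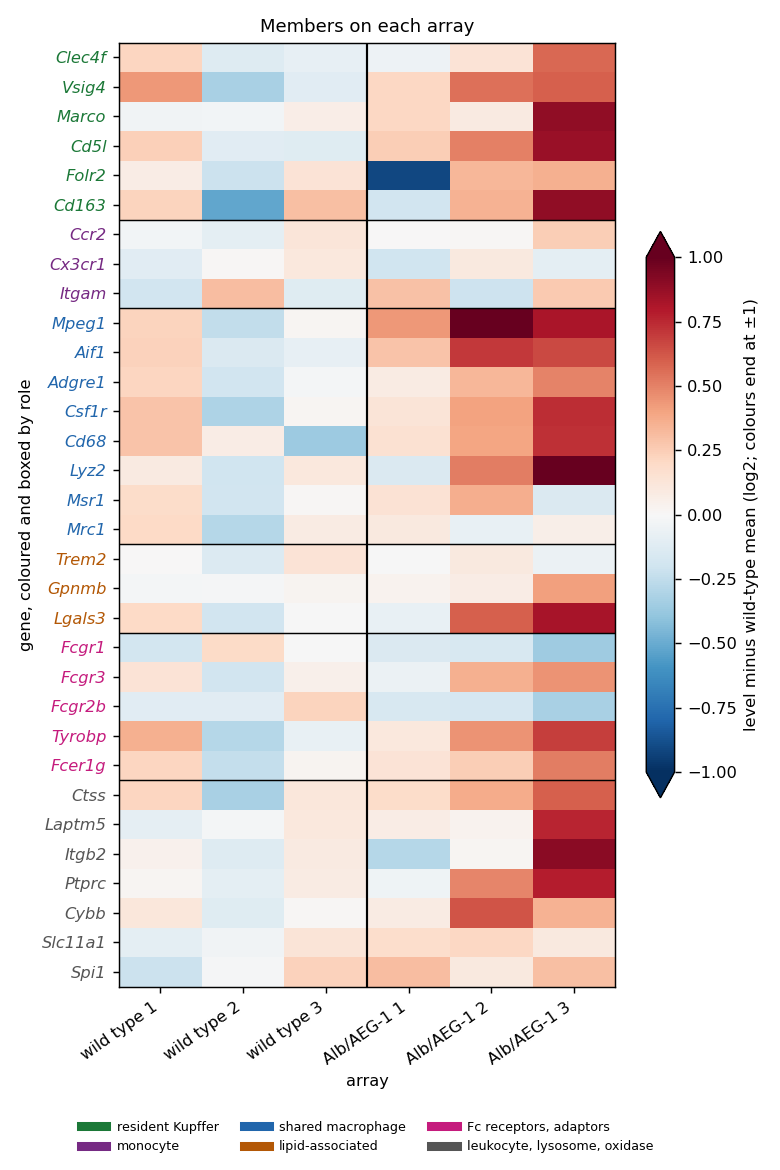
Level of each gene (rows, boxed by role) on each of the 6 arrays (columns) minus its wild-type mean, in log2; red is above and blue below the wild-type mean, and colours end at ±1. The column of Alb/AEG-1 replicate 3 is red in most rows and holds the highest value of 20 of the 32 genes, while the column of wild-type replicate 2 holds the lowest of 19.

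Among the markers of resident Kupffer cells, 5 of 6 had a positive difference, and all 6 were highest on Alb/AEG-1 replicate 3. Clec4f, a C-type lectin that in mice is confined to Kupffer cells, was at 7.87, 7.53 and 7.58 in wild-type against 7.61, 7.79 and 8.23 in Alb/AEG-1 tumours. Vsig4, the receptor that captures particles coated with complement C3 fragments, was at 8.25, 7.49 and 7.70 and at 8.02, 8.37 and 8.41. For both genes wild-type replicate 1 lay above Alb/AEG-1 replicate 1, and the groups overlapped. The differences were 0.22 ± 0.17 (SE; limma, adjusted p = 0.721) for Clec4f and 0.45 ± 0.20 (adjusted p = 0.618) for Vsig4. Leaving out Alb/AEG-1 replicate 3 brought Clec4f to 0.04, and leaving out wild-type replicate 2 brought Vsig4 to 0.29.

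Cd5l and Marco were the Kupffer genes whose groups did not overlap. Cd5l was at 8.93, 8.58 and 8.57 in wild-type against 8.94, 9.20 and 9.56 in Alb/AEG-1 tumours, so that the closest arrays of the 2 groups were level to within about 0.01. Its difference of 0.54 ± 0.17 (SE; limma, adjusted p = 0.601) was 0.38 without Alb/AEG-1 replicate 3. Marco, a scavenger receptor for bacteria and particles, was at 4.57, 4.58 and 4.67 and at 4.82, 4.70 and 5.50. Here 1 array stood above the other 5: the difference was 0.39 ± 0.20 (adjusted p = 0.634) with Alb/AEG-1 replicate 3 and 0.15 without it.

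The other Kupffer genes varied more between animals than between groups. Cd163, the receptor that clears haemoglobin bound to haptoglobin, was at 6.04, 5.30 and 6.12 and at 5.63, 6.17 and 6.71, a difference of 0.35 ± 0.31 (SE; limma, adjusted p = 0.746) that was 0.08 without Alb/AEG-1 replicate 3. Folr2, the folate receptor beta of tissue macrophages, was at 6.49, 6.20 and 6.55 and at 5.50, 6.75 and 6.77. Alb/AEG-1 replicate 1 stood about 1 log2 below the other 2 arrays of its group, and the difference of -0.08 ± 0.32 became 0.34 without it. Folr2 had the second widest spread in the Alb/AEG-1 group (SD 0.73, after 0.97 for Lyz2).

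The Kupffer genes as a group were at 6.84 ± 0.21 (SD, n = 3) in wild-type against 7.15 ± 0.39 in Alb/AEG-1 tumours. The means per array were 7.03, 6.61 and 6.87 against 6.75, 7.16 and 7.53, with Alb/AEG-1 replicate 1 below 2 of the 3 wild-type arrays. The mean difference of 0.31 was -0.07 among the lower-numbered animals and 0.79 among the higher-numbered. It came to 0.12 without Alb/AEG-1 replicate 3, to 0.20 when wild-type replicate 2 was left out, 0.51 without Alb/AEG-1 replicate 1 and 0.01 without the first 2 of these arrays together.

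The stretches before the gene starts of Cd5l, Vsig4, Marco and Ctss show a feature that many of these genes share and that the choice of genes did not use. PU.1 binds purine-rich sites around a GGAA core, and the letters GAGGAA were searched on both strands of RefSeq windows (GRCm38.p6) from 250 bases before to 50 bases after a gene's start; the search for 6 letters was added after an 8-letter form was seen to be rare. Windows were found for 27 of the 33 genes, and not for Adgre1, Csf1r, Itgb2, Msr1, Spi1 and Tyrobp. GAGGAA lay in 15 of the 27 (55.6%) and in 31.3% of all 27025 genes with a window, and the longer GAGGAAGT, which contains it, in 1 of the 27 (Ctss, on the reverse strand, beginning 2 bases before the start) and in 3.69% of all. Clec4f, Cd163, Folr2, Mpeg1 and Lyz2 were among the genes whose window held no GAGGAA. Apart from Ctss, the genes printed below were picked after values were seen. The match is a description of letters and shows no binding. Each stretch below ends at or before the gene start and is written in the sense of the gene, with GAGGAA or its reverse complement in capitals.
Cd5l, chr3:87357775-87357860, plus strand: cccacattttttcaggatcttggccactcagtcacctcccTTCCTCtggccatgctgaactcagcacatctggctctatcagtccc
Vsig4, chrX:96293446-96293633, minus strand: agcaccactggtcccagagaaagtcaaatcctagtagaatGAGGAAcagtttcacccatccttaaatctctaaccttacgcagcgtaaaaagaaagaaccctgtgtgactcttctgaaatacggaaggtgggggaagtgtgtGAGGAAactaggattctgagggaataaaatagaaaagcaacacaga
Marco, chr1:120505125-120505210, minus strand: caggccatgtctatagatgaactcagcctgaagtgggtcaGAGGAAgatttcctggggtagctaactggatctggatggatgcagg
Ctss, chr3:95526582-95526667, plus strand: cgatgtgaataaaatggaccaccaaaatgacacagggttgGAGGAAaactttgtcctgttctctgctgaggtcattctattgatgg
The Vsig4 stretch holds 2 matches, 155 and 53 bases before its start, and the other stretches 1 each, at 66 (Cd5l), 146 (Marco) and 164 (Ctss) bases. The whole Ctss window held 2, since the longer GAGGAAGT at its start, outside the stretch printed, contains the second.

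The monocyte markers showed no shared direction, and all 3 gave signals below the median probe set of the arrays (5.83), where small differences are hard to see. Ccr2, the receptor for the chemokine that draws monocytes out of the bone marrow, was at 3.48, 3.42 and 3.64 in wild-type against 3.52, 3.53 and 3.76 in Alb/AEG-1 tumours. Cx3cr1, the fractalkine receptor, was at 4.21, 4.33 and 4.42 and at 4.12, 4.42 and 4.22. Itgam, the integrin alpha chain of the complement receptor on monocytes and neutrophils, was at 3.41, 3.90 and 3.48 and at 3.88, 3.39 and 3.86. The groups overlapped in all 3 genes, and replicates of Itgam differed by up to about 0.5 within each group.

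The differences were 0.09 ± 0.10 for Ccr2 (SE; limma, adjusted p = 0.808), -0.07 ± 0.11 for Cx3cr1 (adjusted p = 0.867) and 0.12 ± 0.18 for Itgam (adjusted p = 0.859). Their 95% intervals ran from -0.16 to 0.33, from -0.32 to 0.18 and from -0.30 to 0.53. The dimmer probe sets of Ccr2 pointed the other way, at -0.11 and -0.21, as did the second one of Cx3cr1, at -0.11, whose groups did not overlap.

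Set against each other, resident Kupffer and monocyte markers differed between groups by less than the spread between arrays. The monocyte genes had means per array of 3.70, 3.88 and 3.84 in wild-type against 3.84, 3.78 and 3.95 in Alb/AEG-1 tumours, a mean difference of 0.05 (-0.02 with the mean of all probe sets of a gene, and -0.01 without wild-type replicate 1). The Kupffer mean minus the monocyte mean was 3.33, 2.73 and 3.02 in wild-type against 2.91, 3.38 and 3.58 in Alb/AEG-1 tumours. These values overlapped, with group means of 3.03 ± 0.30 (SD, n = 3) and 3.29 ± 0.34. The difference between groups was 0.27, with -0.18 among the lower-numbered and 0.71 among the higher-numbered animals. Leaving out Alb/AEG-1 replicate 3 gave 0.12, as did leaving out wild-type replicate 2; leaving out wild-type replicate 1 gave 0.42 and Alb/AEG-1 replicate 1 gave 0.46. It was -0.03 without wild-type replicate 2 and Alb/AEG-1 replicate 3 together. Signals near the floor of the array understate differences, so the flat monocyte values set no upper bound on the change in monocytes.

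**Figure D3:**
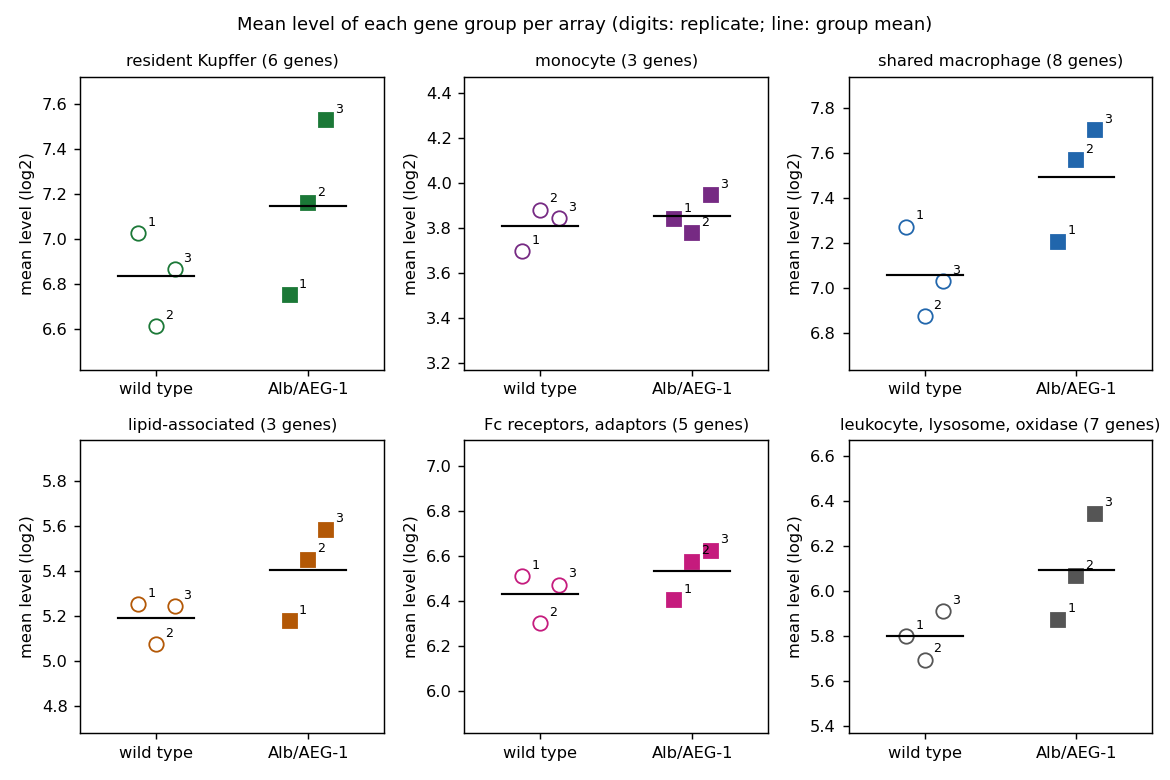
Mean level of the genes of each role on each array (vertical axis, log2, all panels spanning the same width), with open circles for wild-type and filled squares for Alb/AEG-1 tumours, digits for the replicate and lines for group means. Alb/AEG-1 replicate 1 lies among the wild-type arrays in all 6 panels, and Alb/AEG-1 replicate 3 is the highest point of each.

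The genes shared by macrophages had a positive difference in 8 of 8, with a median of 0.42. Mpeg1 was at 8.83, 8.36 and 8.63 in wild-type against 9.04, 10.05 and 9.42 in Alb/AEG-1 tumours. Aif1 was at 5.36, 4.98 and 5.04 and at 5.41, 5.84 and 5.79, with a probe set whose suffix marks possible binding of similar transcripts. In both genes every Alb/AEG-1 array lay above every wild-type array, and Alb/AEG-1 replicate 2 rather than replicate 3 was the highest. Mpeg1 differed by 0.90 ± 0.25 (SE; limma, adjusted p = 0.596) and by 0.71 among the lower-numbered animals, the largest such value of the 32 genes, and 0.93 among the higher-numbered. Aif1 differed by 0.55 ± 0.15 (adjusted p = 0.596), 0.27 among the lower-numbered and 0.78 among the higher-numbered animals.

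Of the widely used macrophage markers, Csf1r, Adgre1 and Cd68 were all highest on Alb/AEG-1 replicate 3, like the Kupffer genes. Csf1r was at 9.02, 8.44 and 8.76 and at 8.87, 9.14 and 9.48. Adgre1, the adhesion receptor that carries the classical mouse macrophage antigen, was at 6.86, 6.46 and 6.62 and at 6.73, 6.98 and 7.14. Cd68, a lysosomal membrane glycoprotein of macrophages, was at 5.22, 5.01 and 4.57 and at 5.09, 5.33 and 5.66. In all 3 genes wild-type replicate 1 lay above Alb/AEG-1 replicate 1, so that the groups overlapped; the lowest array was wild-type replicate 2 for Csf1r and Adgre1 and wild-type replicate 3 for Cd68.

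Their differences were 0.42 ± 0.19 for Csf1r (SE; limma, adjusted p = 0.623), 0.30 ± 0.14 for Adgre1 (adjusted p = 0.629) and 0.43 ± 0.20 for Cd68 (adjusted p = 0.628). Among the lower-numbered animals they were -0.02, -0.01 and -0.01, and among the higher-numbered 0.88, 0.60 and 0.87. The other probe sets of Csf1r differed by 0.26 and 0.08.

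Lyz2 had the widest spread of the 32 genes. It was at 7.82, 7.53 and 7.84 in wild-type against 7.58, 8.24 and 9.50 in Alb/AEG-1 tumours, so that Alb/AEG-1 replicate 3 alone stood more than 1 log2 above the rest and replicate 1 lay within the wild-type values. The difference of 0.71 ± 0.42 (SE; limma, adjusted p = 0.66) was 0.18 without Alb/AEG-1 replicate 3 and 1.14 without Alb/AEG-1 replicate 1.

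The endocytic receptors of this role had the smallest differences in it. Msr1, the class A scavenger receptor for modified lipoproteins, was at 6.88, 6.50 and 6.70 and at 6.84, 7.05 and 6.55, a difference of 0.12 ± 0.15. Mrc1, the mannose receptor, which liver sinusoidal endothelial cells carry as well, was at 8.18, 7.70 and 8.07 and at 8.08, 7.91 and 8.04, a difference of 0.03 ± 0.13 (limma, adjusted p = 0.961) with a 95% interval from -0.29 to 0.34. Neither gene was highest on Alb/AEG-1 replicate 3. The 4 probe sets of Msr1 differed by -0.07 to 0.12.

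The genes of lipid-associated macrophages did not move as 1 set. Lgals3, which encodes the carbohydrate-binding protein galectin-3, was at 5.67, 5.27 and 5.46 in wild-type against 5.39, 6.07 and 6.29 in Alb/AEG-1 tumours, differing by 0.45 ± 0.23 (SE; limma, adjusted p = 0.636). Gpnmb, a membrane glycoprotein of macrophages that digest debris and lipid, was at 4.34, 4.35 and 4.39 and at 4.40, 4.44 and 4.77. Its groups did not overlap, but the gap between the closest arrays was about 0.01, and the difference of 0.17 ± 0.11 was 0.05 without Alb/AEG-1 replicate 3. Trem2, the lipid-sensing receptor that gives this state its usual name, was at 5.75, 5.60 and 5.88 and at 5.74, 5.84 and 5.69, a difference of 0.01 ± 0.10 with a 95% interval from -0.22 to 0.24. The second Trem2 probe set, again of the cross-binding kind, differed by -0.20 with groups that did not overlap.

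The Fc receptors, which bind the constant part of antibodies, divided by gene. Fcgr3, the low-affinity activating receptor for IgG, was at 6.19, 5.86 and 6.10 in wild-type against 5.99, 6.40 and 6.50 in Alb/AEG-1 tumours, differing by 0.25 ± 0.15 (SE; limma, adjusted p = 0.669). Fcgr1, the high-affinity receptor, was at 3.84, 4.22 and 4.02 and at 3.88, 3.87 and 3.67, a difference of -0.22 ± 0.12 (adjusted p = 0.644) at a dim signal. Fcgr2b, the inhibitory receptor, was at 8.65, 8.65 and 8.99 and at 8.60, 8.59 and 8.44, a difference of -0.22 ± 0.12 (adjusted p = 0.64). Every Alb/AEG-1 array lay below every wild-type array for Fcgr2b, by about 0.05 at the closest, and all 4 of its probe sets had a negative difference (-0.23 to -0.03). The probe set that stood for Fcgr2b is also of the cross-binding kind. The groups overlapped in its probe sets at -0.03 and -0.17.

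In the liver Fcgr2b, like Mrc1, is abundant on sinusoidal endothelial cells. The 10 endothelial markers had list means per array of 6.61, 6.53 and 6.48 in wild-type against 6.55, 6.55 and 6.64 in Alb/AEG-1 tumours; these overlapped, with 5 positive and 5 negative differences. Within the list the lymphatic and sinusoidal receptor Lyve1 differed by 0.52 ± 0.22, with 6.87 on Alb/AEG-1 replicate 3 and 5.62 to 6.18 on the other 5 arrays (0.27 without replicate 3), and the orphan receptor Gpr182 by 0.22 ± 0.09. Clec4g, a lectin of sinusoidal endothelium, differed by -0.16 and Stab2, its hyaluronan receptor, by -0.07; these 2 were picked after their values were seen. The part of endothelial cells in the Fcgr2b and Mrc1 values was not tested.

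Both adaptors had a positive difference. Tyrobp, the adaptor that carries the signal of Trem2 and of many other myeloid receptors, was at 7.06, 6.42 and 6.63 and at 6.81, 7.16 and 7.40, a difference of 0.42 ± 0.20 (SE; limma, adjusted p = 0.63). Fcer1g, the gamma chain through which Fcgr1 and Fcgr3 signal, was at 6.82, 6.37 and 6.63 and at 6.74, 6.85 and 7.12, a difference of 0.30 ± 0.14 (adjusted p = 0.631). Both genes had overlapping groups, were lowest on wild-type replicate 2 and highest on Alb/AEG-1 replicate 3, and had differences of -0.08 and -0.02 among the lower-numbered animals.

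All 7 genes of leukocytes, lysosomes and the oxidase had a positive difference, between 0.16 and 0.41. Ctss, which encodes cathepsin S, the protease that trims the invariant chain for antigen presentation, was at 8.29, 7.76 and 8.19 in wild-type against 8.26, 8.45 and 8.68 in Alb/AEG-1 tumours, differing by 0.39 ± 0.17 (SE; limma, adjusted p = 0.618). Cybb, the catalytic subunit of the phagocyte oxidase, was at 4.42, 4.19 and 4.32 and at 4.39, 4.94 and 4.66, a difference of 0.35 ± 0.15 (adjusted p = 0.616). In both genes Alb/AEG-1 replicate 1 lay just under the highest wild-type array, and no other Alb/AEG-1 array overlapped.

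The genes carried by leukocytes at large were highest on Alb/AEG-1 replicate 3. Ptprc, the leukocyte common antigen CD45, was at 6.07, 5.95 and 6.13 and at 6.01, 6.54 and 6.83, a difference of 0.41 ± 0.19 (SE; limma, adjusted p = 0.629) that was 0.23 without that array. Itgb2, the integrin beta chain that pairs with Itgam, was at 5.20, 5.03 and 5.25 and at 4.87, 5.17 and 6.06. Its lowest and its highest array were both Alb/AEG-1, and the difference of 0.21 ± 0.27 was -0.13 without Alb/AEG-1 replicate 3. Laptm5, a lysosomal protein of blood cells, was at 6.25, 6.32 and 6.45 and at 6.41, 6.37 and 7.10 with a probe set of the same kind, and its 3 probe sets differed by -0.16 to 0.29. The 0.29 of the probe set that stood for Laptm5 was 0.05 without Alb/AEG-1 replicate 3.

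Slc11a1 and Spi1 departed from this order. Slc11a1, the metal transporter of phagosomes that governs resistance to intracellular bacteria, was at 5.96, 6.02 and 6.18 and at 6.23, 6.26 and 6.15, a difference of 0.16 ± 0.09 (SE; limma, adjusted p = 0.652). Spi1 was at 4.39, 4.59 and 4.84 and at 4.92, 4.70 and 4.91, a difference of 0.24 ± 0.13 (adjusted p = 0.648). Both had larger differences among the lower-numbered animals (0.29 and 0.42) than among the higher-numbered (0.05 and 0.19), a contrast that was not tested.

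**Figure D4:**
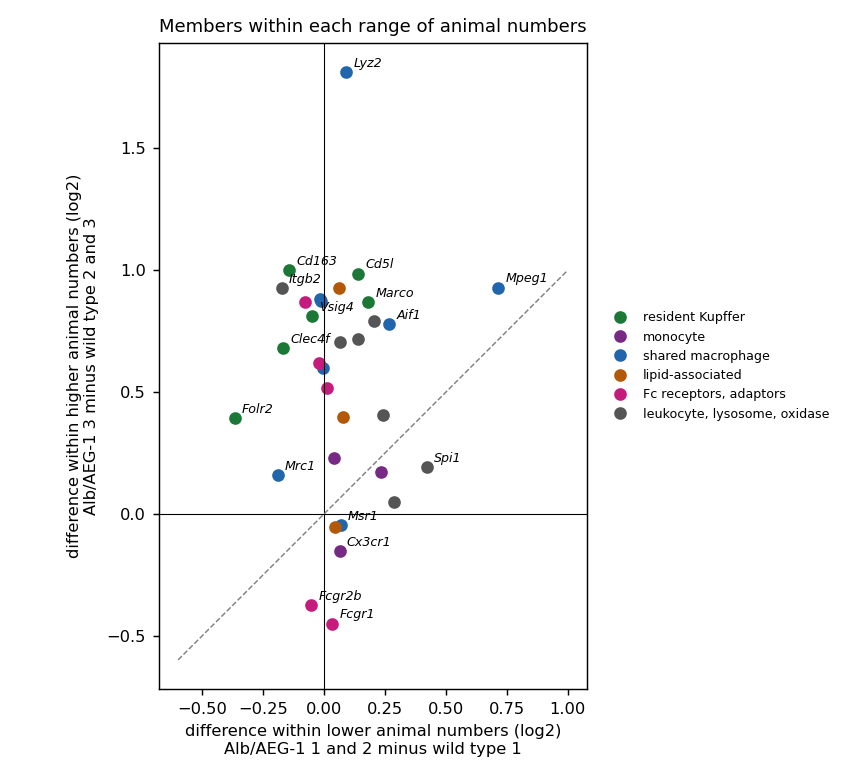
Difference between Alb/AEG-1 and wild-type tumours (log2) of each gene for the lower-numbered animals (horizontal axis, 2 against 1 array) and for the higher-numbered (vertical axis, 1 against 2), coloured by role, with the dashed line where both are equal. Most points lie in the upper part near 0 on the horizontal axis, with Lyz2 at 1.81 on the vertical axis; Mpeg1 is at 0.71 and 0.93, and Spi1 lies below the line at 0.42 and 0.19.

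Further genes of the same cells, from lists that hold none of the 33, gave differences in both directions, and 0 passed the test with limma. The widest were those of Cd9 (1.05) and Fabp5 (0.97, 95% interval from -0.62 to 2.56), a fatty acid carrier picked after its value was seen. Of 10 other genes of Kupffer cells, 8 were positive (47.8% of all genes), 3 of them at an unadjusted p below 0.05 (3.86% of all genes), and the median was 0.16. The list was chosen with earlier results of these data known, so these counts only describe it. Id3, a transcriptional inhibitor needed for Kupffer cell development and present in other liver cells too, was at 8.96, 9.25 and 9.13 in wild-type against 9.92, 9.45 and 9.66 in Alb/AEG-1 tumours, differing by 0.56 ± 0.14 (SE; limma, adjusted p = 0.596). Unlike the Kupffer markers it was highest on Alb/AEG-1 replicate 1, and most genes of this further list were not highest on Alb/AEG-1 replicate 3. Clec1b, a platelet and Kupffer cell lectin receptor, was at 6.73, 6.48 and 6.40 and at 6.66, 6.95 and 7.29, a difference of 0.43 ± 0.17 (adjusted p = 0.611).

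Of 10 other measured monocyte genes, 4 were positive and 6 negative, 1 of the negative at an unadjusted p below 0.05 (4.47% of all genes). Plac8 differed by 0.29 ± 0.14 (SE; limma, adjusted p = 0.632) and Vcan, a matrix proteoglycan made by monocytes and stromal cells, by -0.32 ± 0.12 (adjusted p = 0.611). Among 6 genes of complement and phagocytosis 3 were positive, the 3 chains of C1q, which macrophages make. C1qb was at 8.05, 7.27 and 7.41 and at 8.09, 8.46 and 8.47, a difference of 0.76 ± 0.21 (adjusted p = 0.596), and C1qc differed by 0.42 ± 0.17. Of 4 measured oxidase partners 3 were positive, led by Cyba, the membrane partner of Cybb, at 0.29 ± 0.12, and the small GTPase Rac2 at 0.22 ± 0.11.

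The signalling genes downstream of the adaptors had 7 positive and 5 negative differences and a median of 0.07. Fcgr4 differed by 0.18 ± 0.08 and Plcg2, a phospholipase of antigen and Fc receptor signalling, by -0.34 ± 0.09 (SE; limma, adjusted p = 0.596), with groups that did not overlap. Lineage factors and ligands had 7 positive and 7 negative differences, and their smallest p belonged to Cx3cl1, the ligand of Cx3cr1 (-0.27 ± 0.10), and Klf4, a monocyte transcription factor (-0.25 ± 0.09). Of 10 genes of lysosomes and lipid handling, most of them also made by hepatocytes, 9 were positive. Cd9, a tetraspanin, was at 8.25, 7.38 and 7.63 and at 8.93, 9.15 and 8.33, a difference of 1.05 ± 0.27 (adjusted p = 0.596), and the protease gene Ctsd differed by 0.15 ± 0.09.

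Markers of neutrophils and dendritic cells did not follow the order of arrays seen in the macrophage genes. That order was not confined to macrophage genes. The stellate cell list was also lowest on wild-type replicate 2 (6.97) and highest on Alb/AEG-1 replicate 3 (7.21, against 7.19 on wild-type replicate 1). The 11 measured neutrophil markers had list means of 4.34, 4.61 and 4.79 in wild-type against 4.71, 4.53 and 4.37 in Alb/AEG-1 tumours, with Alb/AEG-1 replicate 3 the lowest of its group, and 4 positive and 7 negative differences. The granule gene Mpo differed by -0.35 ± 0.10 and Ltf by -0.26 ± 0.10, both at dim signals. S100a8, the most variable of them, was at 3.78, 4.80 and 5.91 and at 6.40, 4.99 and 4.68; it was picked after its values were seen. Dendritic cell markers had 1 positive and 5 negative differences (Flt3 -0.23 ± 0.11, Cd209a -0.33 ± 0.12), with list means of 4.79 to 5.00 in wild-type and 4.71 to 4.89 in Alb/AEG-1 tumours.

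T and NK cell markers had 2 positive and 9 negative differences (Cd3g -0.17 ± 0.10, Prf1 -0.22 ± 0.10), with list means of 4.58 to 4.72 and 4.46 to 4.63. B and plasma cell markers had 4 positive and 3 negative, with list means of 5.32 to 5.57 and 5.43 to 5.79. Among them Jchain, the joining chain of secreted antibodies, was at 4.55, 4.40 and 4.67 and at 5.25, 5.69 and 4.77, a difference of 0.70 ± 0.21, and Cd79a differed by 0.11 ± 0.10. Stellate cell, bile duct and hepatocyte lists differed by 0.02, 0.08 and -0.05 in the mean, with Col3a1 at 0.39 ± 0.20 and Des at -0.15 ± 0.08, Sox9 at 0.37 ± 0.38 and Cftr at 0.10 ± 0.10, and Cps1 and Apob at -0.11 ± 0.08 and -0.11 ± 0.10. The Sox9 value rested on single arrays: it was 0.05 without Alb/AEG-1 replicate 2 and 0.77 without Alb/AEG-1 replicate 3. Below the median probe set lay 10 of 11 neutrophil and 5 of 6 dendritic cell markers. So did 9 of 11 T and NK, 6 of 7 B and plasma and 5 of 5 bile duct markers, against 13 of the 32 genes. Small differences in these lists are therefore hard to see. The share of each cell type in a tumour was not measured.

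**Figure D5:**
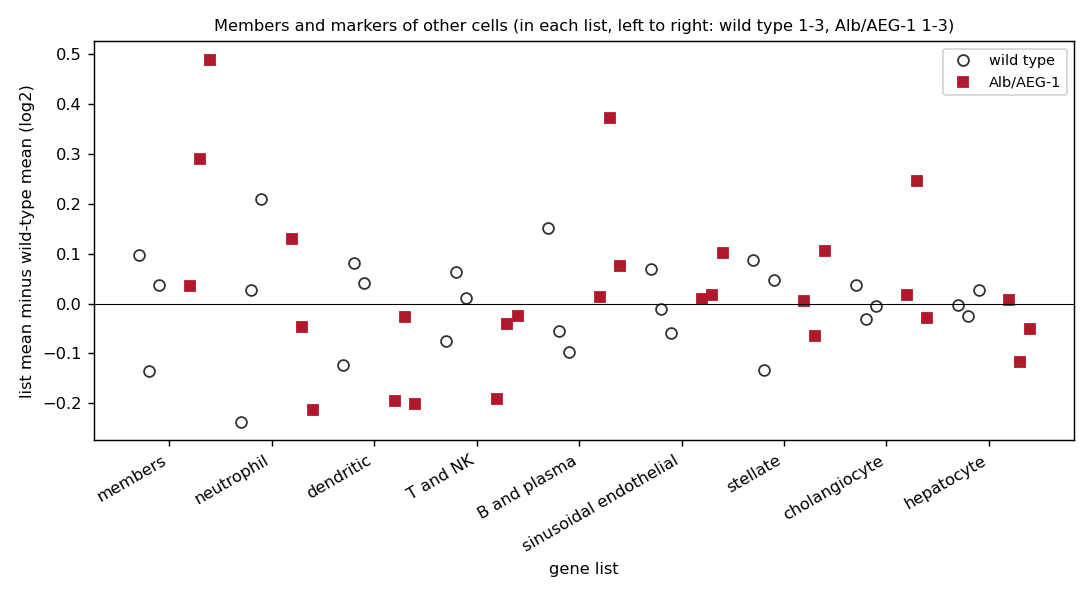
Mean of each gene list on each array minus the wild-type mean of that list (vertical axis, log2), for the 32 genes and for markers of other cells (horizontal axis), with open circles for wild-type replicates 1 to 3 and red squares for Alb/AEG-1 replicates 1 to 3. For the 32 genes and for the sinusoidal endothelial and stellate markers Alb/AEG-1 replicate 3 is the highest point. For neutrophil markers it is the lowest of its group, and for dendritic cell markers it is nearly level with replicate 1 (4.71 and 4.72).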

How the data were processed

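Total RNA from liver tumours of 6 mice (3 wild-type, 3 Alb/AEG-1) had been labelled and run on Affymetrix arrays, per the labels' protocols. The deposited values are log2 levels made by the authors with RMA, per the submitters' processing notes, with no version stated; its quantile step gives every array the same distribution of intensities. The array number limits the precision.

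The 64 control probe sets were left out of 22690. Symbols came from the platform annotation, updated through gene IDs against RefSeq (GRCm38.p6). limma 3.58.1 in R 4.3.3 was fitted to all 22626 probe sets (2-sided, 7.53 total degrees of freedom, Benjamini-Hochberg adjustment over all of them, threshold 0.05), and the fit was tested on simulated data. Groups came from the genotype labels and replicate numbers from accession order. The animals have separate numbers, so samples were treated as separate animals. Gene list means carry no p, since the genes were chosen.

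The members, roles and other lists were chosen with earlier results of these data known. Genes named are all measured members and, of each other list, the 2 with the smallest p; Clec4g, Stab2, S100a8, Fabp5 and the promoters printed besides that of Ctss were picked after values were seen. Fcgr2b and Fcgr3 are near-identical in part, so their probe sets may cross-bind. Other settings tried were trend and robust moderation, repeated quantile normalization, median centring, array weights, omission of dim probe sets or of those that may cross-bind, the mean of all probe sets, the animal number range and each array left out. Plots used matplotlib 3.10.9 in Python 3.11.15.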

Additional observations from a re-analysis of the deposited data

How the results depend on the processing

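No paired analysis was possible because the labels give no replicate numbers that the groups share. Of the 32 genes, 0 passed the threshold under any of the 16 alternatives run, 15 planned and 1 added after the data were seen, and 478 of 497 gene values kept their direction. Trend and robust moderation leave every difference unchanged, so the values counted from them could not have changed direction. Omission of probe sets that may cross-bind also left most differences as they were. Mrc1 was -0.027 after repeated quantile normalization, -0.016 with a term for the animal number range, and -0.12 to 0.12 with 1 array left out; Trem2 was -0.095 with the mean of its probe sets, -0.0049 with the range term and -0.056 to 0.082 with 1 array left out. Ccr2 was -0.0771 with the mean of its probe sets. Folr2 was 0.013 with the range term and -0.29 to 0.34 with 1 array left out, Cx3cr1 -0.15 to 5.7e-04 and Itgb2 -0.13 to 0.46. Without wild-type replicate 2 and Alb/AEG-1 replicate 3 together, Clec4f was -0.0236, Cd163 -0.18, Ccr2 -0.038, Mrc1 -0.13, Trem2 -0.021 and Itgb2 -0.20.

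The count of positive members was 17 of the 19 left with dim probe sets left out, and separated members were 3 there and 6 to 20 of 32 with 1 array left out. With 1 array left out 22% to 32% of all genes separated, and for the setting without dim probe sets that share is not given here. Probe sets past the threshold numbered 2 with trend moderation, 0 with the range term, 0 without both arrays, and 0 to 1 with 1 array left out. With the mean of all probe sets of a gene, genes were tested in place of probe sets, and 2 genes passed. With dim probe sets left out no monocyte marker remained, so the Kupffer and monocyte comparison gave no value. RMA gives no detection calls, and 13 of the 32 genes lay below the median probe set, where differences can be compressed.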
